A study of Homo sapiens with 2 samples.

Results

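The methylation of 9 transcription factor genes of blood stem cells and of the erythroid and megakaryocytic lineages was compared between OCI-AML3 and OCI-AML5, which are established lines of acute myeloid leukemia (AML). The genes were taken by name, GATA2, TAL1, LYL1, LMO2, ERG, FLI1, KLF1, NFE2 and ZFPM1, and are 9 of the 20163 protein-coding genes in the annotation used. Every CpG within 2 kb of an annotated transcription start site (TSS) of these genes, in their bodies or in the 50 kb on either side was included. This gave 3075 CpGs near start sites and 26091 in all, of 28217448 CpGs listed for each line. OCI-AML3 is labelled DNMT3A mutant, and the study's text gives it a heterozygous mutation in this de novo DNA methyltransferase gene. OCI-AML5, which the study calls AML5, is labelled DNMT3A wild type. Both were grown in the same medium, and each gave 1 whole-genome bisulfite library. The lines come from different leukemias, so DNMT3A status cannot be told apart from any other difference between them. No result has a replicate check. The call tables hold no expression, so the lineage named for these genes was not checked in these cells.

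GATA2, TAL1 or its relative LYL1, LMO2 and the ETS factors ERG and FLI1 bind together at many enhancers of blood stem and progenitor cells, where LMO2 bridges the GATA and basic helix-loop-helix proteins without binding DNA itself. As cells enter the erythroid and megakaryocytic lineages, GATA1 takes the place of GATA2 with its cofactor ZFPM1 (FOG1), KLF1 activates globin and red cell membrane genes, and NFE2 acts at globin and platelet genes. Methylation of CpGs at a promoter or enhancer is commonly found where the element is not in use, whereas bodies of transcribed genes are usually methylated.

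The methylation level of a CpG is the share of its calls that were methylated, and levels were used where a CpG had more than 5 calls in both lines. Averaged over covered nuclear CpGs, methylation stood at 67.6% for OCI-AML3 and 75.4% for OCI-AML5, and the median depth was 27 and 30 calls. At those depths 3 methylated calls correspond to 11.1% and 10.0%. Over the 9 loci the mean depth per CpG ran from 32.4 to 50.0 calls in OCI-AML3 and from 32.1 to 57.5 in OCI-AML5. Single CpGs were compared by Fisher's exact test, two-sided, with Benjamini-Hochberg adjustment over all 24454751 nuclear CpGs at a threshold of 0.05. The test and all intervals compare 2 libraries and cover read sampling only.

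Some stretches of these loci that differed between the lines are shown first, to let the letters be read beside the values. They were picked from runs, which are at least 5 consecutive CpGs that all differed by at least 20 percentage points in 1 direction with no gap over 500 bp. They are not the widest differences. A run upstream of LMO2, at 3.90% in OCI-AML3 and 95.8% in OCI-AML5, differed more than the GATA2 intron 1 and ZFPM1 stretches but is not printed. All sequences are from GRCh37, on the strand of the gene, with each CpG in capitals except in the 20-base line, where the capitals mark an E-box and a GATA motif. The CpGs of the first and of the LYL1 and ERG stretches were more methylated in OCI-AML3, and those of the other 4 were less methylated there. The stretches are GATA2 intron 4 (chr3:128202014-128202313) with the motif pair inside it (chr3:128202154-128202173), GATA2 intron 1 (chr3:128208280-128208423), the upstream flank of TAL1 (chr1:47701001-47701300), exon 3 and intron 3 of LYL1 (chr19:13211217-13211516), intron 1 of ERG (chr21:39848261-39848560), coding exon 2 of KLF1 (chr19:12996622-12996921) and coding exon 10 of ZFPM1 (chr16:88600616-88600915). ZFPM1 lies on the plus strand and the other 5 genes on the minus strand.
GATA2 intron 4: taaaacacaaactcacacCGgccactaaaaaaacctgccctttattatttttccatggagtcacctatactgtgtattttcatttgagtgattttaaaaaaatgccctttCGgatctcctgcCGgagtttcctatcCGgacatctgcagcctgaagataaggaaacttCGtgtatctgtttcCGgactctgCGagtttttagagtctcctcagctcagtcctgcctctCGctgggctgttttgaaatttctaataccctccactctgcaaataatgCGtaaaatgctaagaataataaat
GATA2 E-box and GATA pair: CATCTGcagcctgaAGATAA
GATA2 intron 1: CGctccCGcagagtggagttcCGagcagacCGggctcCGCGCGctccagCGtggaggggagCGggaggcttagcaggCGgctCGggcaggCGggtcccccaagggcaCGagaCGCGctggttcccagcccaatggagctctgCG
TAL1 upstream flank: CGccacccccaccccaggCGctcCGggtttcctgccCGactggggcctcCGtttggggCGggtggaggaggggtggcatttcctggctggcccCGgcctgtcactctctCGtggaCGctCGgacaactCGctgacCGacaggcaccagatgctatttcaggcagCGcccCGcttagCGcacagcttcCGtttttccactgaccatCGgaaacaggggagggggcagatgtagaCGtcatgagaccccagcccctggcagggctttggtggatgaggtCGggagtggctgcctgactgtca
LYL1 exon 3 and intron 3: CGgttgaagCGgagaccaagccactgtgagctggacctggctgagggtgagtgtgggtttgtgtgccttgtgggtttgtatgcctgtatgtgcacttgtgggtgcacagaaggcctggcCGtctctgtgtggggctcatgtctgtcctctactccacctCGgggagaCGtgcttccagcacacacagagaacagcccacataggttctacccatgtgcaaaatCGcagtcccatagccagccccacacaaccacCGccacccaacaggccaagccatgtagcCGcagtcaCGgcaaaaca
ERG intron 1: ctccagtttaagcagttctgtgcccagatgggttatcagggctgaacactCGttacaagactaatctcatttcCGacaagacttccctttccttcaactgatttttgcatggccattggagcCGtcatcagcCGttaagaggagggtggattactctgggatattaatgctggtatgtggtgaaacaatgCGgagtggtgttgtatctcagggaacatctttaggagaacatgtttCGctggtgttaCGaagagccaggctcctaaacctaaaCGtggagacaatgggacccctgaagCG
KLF1 exon 2: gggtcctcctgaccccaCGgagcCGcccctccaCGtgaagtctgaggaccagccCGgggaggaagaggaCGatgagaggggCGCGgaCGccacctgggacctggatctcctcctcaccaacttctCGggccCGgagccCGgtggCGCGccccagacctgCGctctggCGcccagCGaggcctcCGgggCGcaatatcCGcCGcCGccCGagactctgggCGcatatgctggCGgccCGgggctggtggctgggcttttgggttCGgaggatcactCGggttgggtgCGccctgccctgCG
ZFPM1 exon 10: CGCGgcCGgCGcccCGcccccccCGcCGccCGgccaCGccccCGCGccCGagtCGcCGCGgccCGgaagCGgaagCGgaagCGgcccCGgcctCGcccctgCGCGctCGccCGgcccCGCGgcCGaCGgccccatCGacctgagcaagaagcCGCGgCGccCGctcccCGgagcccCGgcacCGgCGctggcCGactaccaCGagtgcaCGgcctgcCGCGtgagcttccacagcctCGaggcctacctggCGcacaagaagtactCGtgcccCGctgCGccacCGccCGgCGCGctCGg

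The stretches differed in CpG density. The GATA2 intron 4, LYL1 and ERG stretches held 9 CpGs each in 300 bases, the TAL1 stretch 19, the KLF1 exon 29 and the ZFPM1 exon 53. In the ZFPM1 stretch the 53 CpGs averaged 0.103% in OCI-AML3 and 45.7% in OCI-AML5, and no CpG of it was above 1.56% in OCI-AML3 or below 21.1% in OCI-AML5. In the GATA2 intron 4 stretch the 9 CpGs averaged 82.6% in OCI-AML3 and 3.83% in OCI-AML5. Their lowest level in OCI-AML3 was 48.2% and their highest in OCI-AML5 was 13.3%, so the lines did not overlap at any of them. These values chose the stretches and are given without a test.

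At the most upstream start site, the promoters of KLF1, FLI1, ERG, GATA2 and ZFPM1 were less methylated in OCI-AML3 and those of NFE2, TAL1, LYL1 and LMO2 more. A promoter was taken as 2 kb on either side, and its level as the mean over its CpGs. The differences, OCI-AML3 minus OCI-AML5, ran from -34.5 points at KLF1 to 14.9 points at NFE2, with a median of -3.42 points, against a median of -4.68 points over all 19667 promoters with at least 10 CpGs. Of the 9 promoters, 2 (KLF1 and FLI1) were lower by at least 20 points, where 8.61% of all promoters were, and 0 were higher by as much, where 1.79% of all were. Of all promoters 84.7% were lower in OCI-AML3, so the 4 that were higher stood at high percentiles, NFE2 at 97.1, TAL1 at 93.8, LYL1 at 93.3 and LMO2 at 93.3 from the lowest difference up. KLF1 stood at percentile 2.08 and FLI1 at 3.32. With the 2 kb upstream of the start alone the KLF1 difference was -18.4 points and the FLI1 difference -6.67 points, both short of 20. With 1 kb on either side KLF1 was at -14.1 points, FLI1 at -41.2 and ERG at -25.7.

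**Figure D1:**
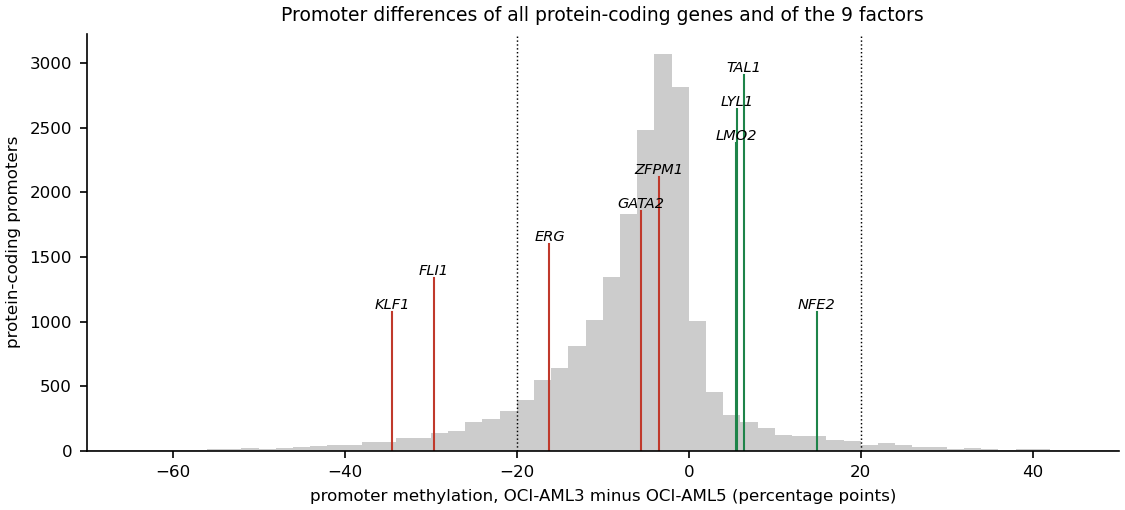
Distribution of promoter differences (percentage points, OCI-AML3 minus OCI-AML5) over 19667 protein-coding genes in bins of 2 points, with the 9 factors as vertical lines, red where lower and green where higher; line heights only separate the names. Dotted lines mark 20 points either way, which KLF1 and FLI1 pass and the other 7 factors do not.

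Over all CpGs within 2 kb of any start site of the 9 genes, 2963 were tested, of which 586 (19.8%) were called lower in OCI-AML3 and 195 (6.58%) higher. Among CpGs within 2 kb of any protein-coding start site 12.5% were called lower and 4.12% higher. The calls were unevenly spread. KLF1 had 69.9% of its CpGs called lower and TAL1 25.6% of its CpGs called higher, whereas ZFPM1 had 6.39% called lower and 0 higher. Over the whole loci 24959 CpGs were tested, with 14.9% called lower and 3.19% higher, beside 14.7% and 3.86% of all nuclear CpGs.

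**Figure D2:**
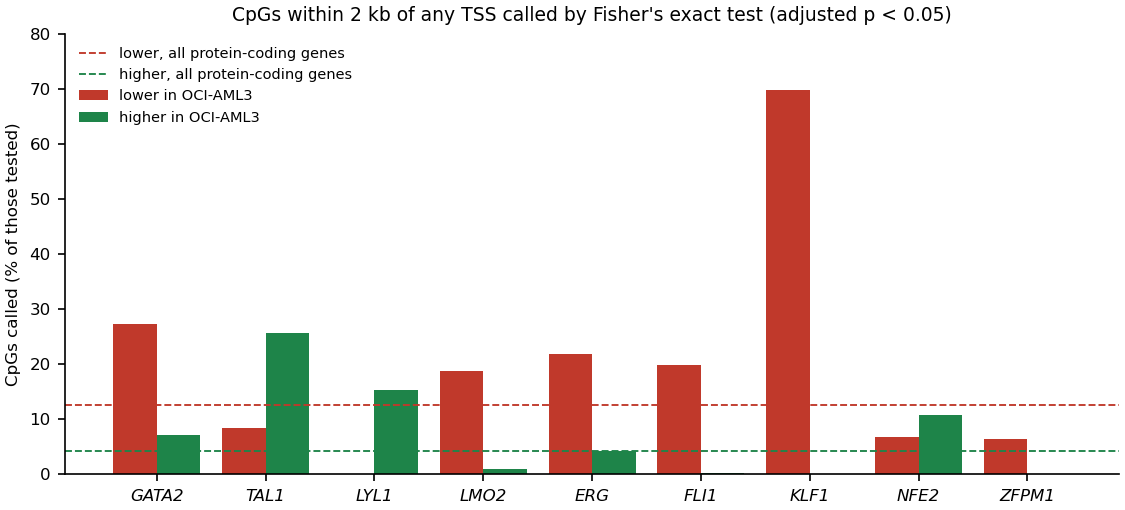
Share of CpGs (%) within 2 kb of any TSS of each gene called lower (red bars) or higher (green bars) in OCI-AML3 by Fisher's exact test, with the shares over all protein-coding genes, 12.5% and 4.12%, as dashed lines. The bars for lower calls are tallest at KLF1, 69.9%, and LYL1 has 0, and the bars for higher calls are tallest at TAL1, 25.6%, and LYL1, 15.3%.

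GATA2, the zinc finger factor that maintains stem and progenitor cells, differed in both directions inside 1 gene. Its 5' part, a CpG-rich stretch of 578 tested CpGs around the upstream start sites, averaged 14.8% in OCI-AML3 and 25.5% in OCI-AML5, with 157 CpGs called lower and 23 higher. In OCI-AML5 219 of these CpGs lay between 20 and 80%, against 109 in OCI-AML3. The first run of loss by mean difference times CpG number, in intron 1 and also under the antisense gene GATA2-AS1, was the 16 CpGs of the printed intron 1 sequence, at 0.939% in OCI-AML3 and 44.2% in OCI-AML5. Its 3' flank was also lower, at 65.1% against 82.9%, with 270 of 894 CpGs called lower and 12 higher. In the 5' flank, 30.6 kb upstream of the start, a run of 17 CpGs averaged 8.08% and 61.5%.

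A stretch inside intron 4 of GATA2 went the other way, but not the whole region around it. The downstream start region that contains the stretch, 118 CpGs, averaged 74.3% in OCI-AML3 and 71.4% in OCI-AML5. Of its CpGs, 33 were called lower and 27 higher. Intron 4 is the place of an enhancer known from human and mouse, whose core is an E-box next to a GATA motif. Inherited changes in this enhancer cause GATA2 deficiency. A run of 22 CpGs over 680 bp there (chr3:128201833-128202512), centred 9.87 kb downstream of the TSS, averaged 81.9% in OCI-AML3 and 7.24% in OCI-AML5. CATCTG followed after 8 bases by AGATAA, on either strand, occurred once in the run and 2 times in the 9 loci together. It occurred 714 times on the 7 chromosomes that hold the genes, and 0.0235% of their 300 bp windows held it. The 13 CpGs within 250 bp of the GATA2 match averaged 80.6% in OCI-AML3 and 3.14% in OCI-AML5. Of the 362 matches with at least 3 covered CpGs within 250 bp, this difference of 77.5 points was the second highest (rank 2). The median over those matches was -6.0 points, with 19 at least 20 points higher and 92 at least 20 points lower. The GATA2 match was reached through a run chosen for its gain, so a high rank was close to set in advance and is no test. The other match, 38.2 kb downstream of the LYL1 start, had 3 CpGs at 95.2% in both lines.

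TAL1, the basic helix-loop-helix factor at the centre of this complex, was more methylated in OCI-AML3 along its first introns and less methylated just upstream. Its upstream start region, 238 CpGs, averaged 52.7% in OCI-AML3 and 38.2% in OCI-AML5, with 70 CpGs called higher and 11 lower. The second start region, 133 CpGs, averaged 32.2% and 28.9%, with 25 called higher and 20 lower. The promoter as a whole averaged 38.4% and 32.0%, but with 1 kb on either side of the start the difference turned to -1.82 points and with the upstream 2 kb alone to -3.39 points. Body CpGs away from start sites averaged 87.9% against 78.9%, which placed the gene at percentile 98.2 of the body differences of 17276 genes. There were 9 runs of gain within 2 kb of its start sites, more than at any other of the 9 genes, and the first by mean gain times CpG number spanned 926 bp of intron 2, at 81.2% against 22.2% over 15 CpGs.

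A run of 20 CpGs over 520 bp in the flank, centred 3.25 kb upstream of the TAL1 start (chr1:47700888-47701407), was the reverse, at 5.61% in OCI-AML3 and 82.3% in OCI-AML5. The printed TAL1 sequence is the CpG-densest 300 bases of it. A short run of 5 CpGs in exon 3 was lower too, at 6.98% against 60.2%. In the 3' flank, 52.1 kb from the start and over LINC00853, 6 CpGs were higher, at 60.02% against 3.79%.

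LYL1, a close relative of TAL1, was almost free of methylation in OCI-AML5 and partly methylated in OCI-AML3. Its promoter averaged 6.39% in OCI-AML3 and 0.798% in OCI-AML5, and its body 11.9% and 0.417%. Of 131 CpGs near its start sites, 20 were called higher and 0 lower, and 21 lay between 20 and 80% in OCI-AML3 against 0 in OCI-AML5. A run of 20 CpGs from exon 2 to intron 3 (chr19:13211155-13211978) averaged 56.9% and 1.47%. A second run of 6 CpGs, centred 0.844 kb upstream of the most upstream start, averaged 63.5% and 5.18%. The lowest level of any CpG in the longer run was 23.1% in OCI-AML3, and the highest in OCI-AML5 was 8.57%. In the flank, within NACC1, 13 CpGs were lower, at 3.88% against 95.6%.

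LMO2, the LIM-only bridging protein, is transcribed from several start regions, and they differed in direction. At the distal and most upstream one, 49 CpGs averaged 9.94% in OCI-AML3 and 4.40% in OCI-AML5, with 3 called higher and 0 lower. At the middle one, 221 CpGs averaged 6.64% and 19.1%, with 57 called lower and 0 higher. At the one nearest the 3' end, 49 CpGs were highly methylated in both lines, at 90.8% and 95.6%. Over all start regions together the difference was -8.53 points, against 5.54 points at the distal one. Inside intron 4 a run of 14 CpGs averaged 0.576% in OCI-AML3 and 57.1% in OCI-AML5. A run of 13 CpGs in intron 1, 2.37 kb from the distal start, was higher, at 76.7% and 18.03%. The widest difference of a run shown for this gene lay 6.30 kb upstream of the distal start (chr11:33919670-33920185), where 13 CpGs averaged 3.90% in OCI-AML3 and 95.8% in OCI-AML5 and no CpG was above 14.3% in OCI-AML3 or below 81.0% in OCI-AML5.

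The ETS genes ERG and FLI1 each had a run of loss around the most upstream start and a run of gain inside the first intron of the canonical transcript, with runs of loss elsewhere in the body. At ERG the most upstream promoter averaged 13.4% in OCI-AML3 and 29.6% in OCI-AML5, with 68 of 207 CpGs called lower and 7 higher. A run of 27 CpGs there averaged 1.52% and 75.6%. The canonical start, 163303 bp further into the gene, was methylated in both lines, at 87.9% and 78.6% over 45 CpGs, with 7 called higher and 1 lower, a difference of 9.29 points in the other direction. Mean depth at the upstream promoter was 60.3 calls in OCI-AML3 and 35.9 in OCI-AML5, and leaving out CpGs with more than 3 times the line's median calls gave a difference of -12.6 points in place of -16.2.

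In intron 1 of ERG, centred 21.9 kb downstream of the canonical start, 13 CpGs (chr21:39848262-39848674) averaged 74.2% in OCI-AML3 and 5.40% in OCI-AML5, and a neighbouring run of 11 CpGs 21.1 kb downstream averaged 85.6% and 13.6%. The whole body outside start regions, these runs included, averaged 86.2% and 86.9% over 2540 CpGs. Of these, 140 (5.51%) were called lower and 121 (4.76%) higher, beside 14.7% and 3.86% of all nuclear CpGs. Ranked by mean difference times CpG number, the first run of loss within the body held 7 CpGs at 27.3% against 84.7%, and the first in the flanks, 5.98 kb upstream of the most upstream start, held 8 CpGs at 25.8% against 72.5%.

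At FLI1, a driver of megakaryocytic genes, the most upstream promoter averaged 60.6% in OCI-AML3 and 90.3% in OCI-AML5, with 66 of 166 CpGs called lower and 0 higher. Within it 1 run of 54 CpGs over 816 bp (chr11:128556775-128557590) stood at 3.74% against 83.1%. The canonical start, 7537 bp downstream, averaged 5.74% and 14.1% over 219 CpGs. Of these, 28 (12.8%) were called lower, close to the 12.5% near all protein-coding start sites, and 0 higher. In intron 1, 26.6 kb beyond the canonical start, 21 CpGs (chr11:128590176-128590863) were higher, at 88.3% against 14.1%, at a mean depth of 15.8 and 23.5 calls. Farther along the same intron, 51.9 kb beyond the canonical start, a run of 7 CpGs was lower, at 15.1% against 83.7%, and another of 8 CpGs 40.2 kb beyond it, chosen after its values were seen, averaged 7.94% and 53.6%. In the 3' flank a run of 5 CpGs was lower, at 14.5% against 85.8%. FLI1 body CpGs outside start regions averaged 86.2% and 86.9%. Of 1351, 61 (4.52%) were called lower and 38 (2.81%) higher, beside 14.7% and 3.86% of all nuclear CpGs.

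**Figure D3:**
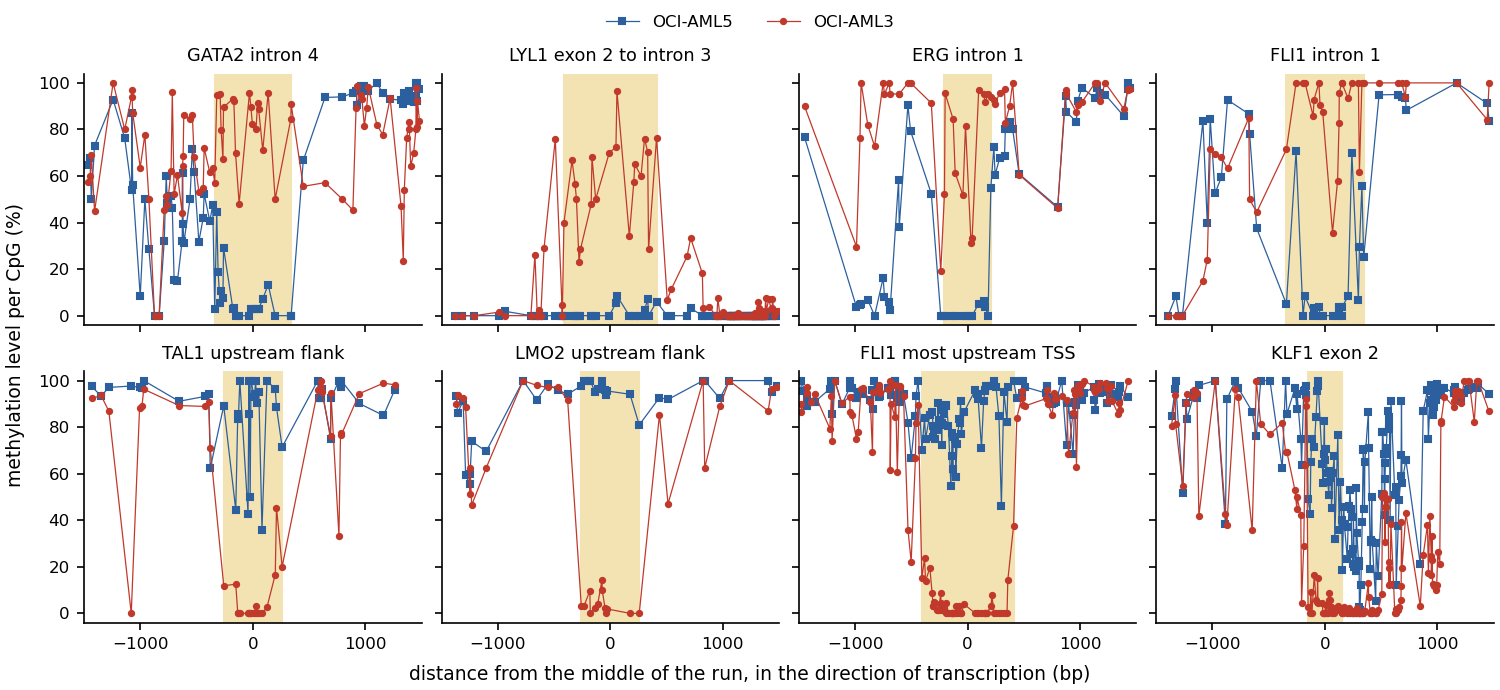
Methylation level (%) of each covered CpG, OCI-AML3 in red and OCI-AML5 in blue, against distance (bp) from the middle of 8 runs (shaded), with transcription to the right. In the top row (GATA2, LYL1, ERG and FLI1) the OCI-AML3 level is the higher one inside the run, and in the bottom row (TAL1, LMO2, FLI1 and KLF1) the lower one; runs were chosen for these differences.

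KLF1, the erythroid Kruppel-like factor, was lower in OCI-AML3 on average over promoter and body, but not evenly. The gene is 2780 bp long, so the promoter window took in exon 2, where the named run of loss lay. With 1 kb on either side of the start the difference was -14.1 points. Close to the start, CpGs at 93.0% and 90.4% in OCI-AML3 stood at 93.1% and 90.5% in OCI-AML5, whereas another stood at 41.9% and 97.9%. Its promoter averaged 31.4% in OCI-AML3 and 65.9% in OCI-AML5, with medians of 11.8% and 68.4%, and 102 of 146 CpGs were called lower and 0 higher. As a share of all calls the promoter was 23.96% methylated in OCI-AML3 (95% Wilson interval 23.01 to 24.9, 7568 calls) and 61.3% in OCI-AML5 (60.3 to 62.4, 8338 calls). The 33 CpGs of the body beyond the promoter averaged 57.7% and 91.6%, at percentile 1.68 of all gene bodies, with 18 called lower and 0 higher. The run in coding exon 2, whose sequence is printed, held 30 CpGs at 3.43% and 63.6%, and a run across intron 2 and exon 3 held 15 CpGs at 21.7% and 91.7%. KLF1 lies among 7 other protein-coding genes within 50 kb, and the first flank run in each direction by mean difference times CpG number overlapped HOOK2 and MAST1. The run of loss held 27 CpGs at 28.5% against 79.0%, and the run of gain 11 CpGs at 75.8% against 21.8%.

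NFE2, the large subunit of the NF-E2 factor, had the highest promoter difference of the 9 genes, on few CpGs. Its promoter averaged 25.7% in OCI-AML3 and 10.8% in OCI-AML5 over 37 CpGs, of which 6 were called higher and 0 lower. A run of 10 CpGs in intron 1 averaged 75.8% and 27.0%. Over all its start regions the levels were 57.0% and 52.0%, with 11 called higher and 7 lower, and the 41 remaining body CpGs averaged 95.5% in both. In the flank, within COPZ1, a run of 18 CpGs was lower, at 33.2% against 95.4%.

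ZFPM1, the FOG1 cofactor of GATA factors, differed more in its long body than at its promoter. The promoter averaged 6.78% in OCI-AML3 and 10.2% in OCI-AML5 over 317 CpGs, with 23 called lower and 0 higher. The body averaged 73.5% and 88.2% over 2858 CpGs, with 687 called lower and 19 higher, and stood at percentile 14.6 of all gene bodies. A total of 26 runs of loss lay in the body, the most of any of the 9 genes, with runs within 2 kb of a start site counted apart. As a share of tested CpGs of the whole locus, runs of loss took 7.55%, below 8.93% at KLF1 and 8.41% at GATA2. The run in exon 10 held 76 CpGs over 445 bp, with means of 0.0716% in OCI-AML3 and 41.2% in OCI-AML5. All of these CpGs were at most 1.56% in OCI-AML3 and at least 21.1% in OCI-AML5. Just upstream of the start, 5 CpGs were lower, at 5.45% against 52.3%. Farther upstream, over ZNF469, 36 CpGs were higher, at 47.0% against 0.888%, and 27 were lower, at 27.7% against 85.7%.

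In fixed 1 kb windows with at least 5 covered CpGs, 139 of 1310 windows over the 9 loci (10.6%) were lower in OCI-AML3 by at least 20 points, against 18.6% of all nuclear windows. A further 25 (1.91%) were higher by as much, against 2.88%. In the gene bodies 19 of 499 windows (3.81%) were higher and 44 (8.82%) lower, beside 2.03% and 15.7% in the bodies of all protein-coding genes. In the flanks 6 of 811 windows (0.740%) were higher and 95 (11.7%) lower, beside 3.78% and 21.5% of all windows outside protein-coding genes. The flanks included bodies of neighbouring protein-coding genes, which the latter set leaves out, so these shares are not of like sets. The difference between bodies and flanks was not tested. TAL1 gave 6 of the 19 body windows that were higher, ERG 4, FLI1 3, LMO2 and NFE2 2 each, GATA2 and LYL1 1 each, and KLF1 and ZFPM1 0. Over the whole loci, flanks included, GATA2 had the largest share of lower windows, 29 of 102 (28.4%), and FLI1 the smallest, 7 of 191 (3.67%). In the gene bodies alone, 4 of 14 GATA2 windows were lower. There KLF1 had the largest share, 2 of only 3 windows, and TAL1 and LYL1 had 0.

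Runs of loss outnumbered runs of gain over the 9 loci, 149 to 26, and over the nuclear genome, 133251 to 24630. Of the runs of loss, 82 lay in the flanks, some of them over neighbouring genes. Within 2 kb of a start site or in the gene bodies the runs numbered 67 to 21. Of the tested CpGs 5.75% were in runs of loss and 1.12% in runs of gain, beside 4.07% and 0.807% of all nuclear CpGs. The run rule depends on CpG spacing, and the nuclear CpGs and runs were not matched for it. In the 1 kb windows the shares went the other way, below those of the genome in both directions. Runs of loss over the 9 loci, flanks included, were dense in CpGs, with a median of 5.56 CpGs per 100 bp against 2.10 over all nuclear runs of loss. Runs of gain had a median of 3.19 against 3.88. Within 2 kb of a start site or in the gene bodies the medians were 7.78 for loss and 3.15 for gain. A near-complete difference, with a mean of at most 10% in 1 line and at least 50% in the other, was seen in 32 of the 149 runs of loss (21.5%) and in 5 of the 26 runs of gain (19.2%). Over all nuclear runs the shares were 14.3% and 8.73%. The 5 near-complete gains were the GATA2 intron 4 run, both LYL1 runs, the ERG intron 1 run and the 3' flank run of TAL1.

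Partner proteins and target genes of these factors were read in the same way from a fixed list. Of 18 partners, such as LDB1 and RUNX1, 14 promoters were lower in OCI-AML3 and 4 higher, with a median difference of -3.87 points, beside 84.7% lower and a median of -4.68 points over all promoters. None of them was lower by 20 points and 1 was higher by as much, CBFA2T3, a corepressor bound by the TAL1 complex, at 39.8% in OCI-AML3 and 19.2% in OCI-AML5. The promoter of GATA1, on chromosome X, averaged 73.1% and 82.8%. Of 11 textbook erythroid and megakaryocytic targets, 8 were lower and 3 higher, with a median of -6.55 points, and 3 were lower by at least 20 points, as were 8.61% of all promoters. The blood group gene KEL averaged 40.5% against 83.5%, the erythropoietin receptor gene EPOR 22.97% against 57.1%, and ALAS2, an X-linked gene for the first enzyme of heme synthesis in red cells, 63.5% against 93.1% over 11 CpGs. The largest gains after CBFA2T3 were small, 3.81 points at AHSP, the alpha globin chaperone, and 1.96 points at PF4, a platelet chemokine.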

How the data were processed

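The deposited tables held, for each CpG of the nuclear and mitochondrial genome, counts of methylated and unmethylated calls, which the authors made by aligning bisulfite reads to hg19 with Bismark and Bowtie 0.12.8, per the labels, with both strands added together. Read deduplication is not given in the sources used here. All listed positions on the 7 chromosomes of the 9 genes fell on the G of a CpG in GRCh37, and 0 columns were left unused. Of mitochondrial calls, 0.169% (OCI-AML3) and 0.101% (OCI-AML5) were methylated. Genes came from GENCODE v44 lifted to GRCh37 and not from the release the study used. From the counts, levels, Fisher's exact tests, 1 kb windows and runs were computed with Python 3.11.15, NumPy 2.4.6, SciPy 1.17.1, pandas 2.3.3 and numba 0.67.0, checked on simulated calls, and plotted with Matplotlib 3.10.9. As in the study's methods, promoters were set on the most upstream TSS. The smoothed differentially methylated regions of the study were not used. The 9 genes, the list of partners and targets and the tests were chosen with earlier results of these data known, and 1 gene of that list is not reported here. Named were all 9 genes, in each gene the run with the largest mean difference times CpG number per direction within 2 kb of a TSS, in the body and in the flanks, and the 3 list promoters with the largest loss and the 3 with the largest gain; GATA1, LDB1, RUNX1 and the second runs of LYL1 and ERG were named after their values were seen. Other minimum calls, averages, windows, start sites and thresholds were tried.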

Additional observations from a re-analysis of the deposited data

How the results depend on the processing

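Each line had 1 library, so no replicate could be left out, and the depth limits a single CpG to steps of a few points. No paired analysis was possible because each line had only 1 library. The counts of CpGs called by Fisher's exact test stayed within 1.5 times of the reported counts with at least 10 calls and with a difference of at least 20 points added. The number of promoters lower by 20 points, 2, was 0 in the 2000 bp upstream alone, 1 at the canonical TSS, 1 over the union of all start regions and 1 at a threshold of 30 points, and with the share of calls it was 3. With 1000 bp on either side it was again 2, but ERG and FLI1 and not KLF1. The 1 kb windows lower by 20 points, 139, were 223 of 1833 with 500 bp windows (12.2% against 16.3% of all), 64 of 725 with 2000 bp windows (8.83% against 19.9%) and 59 at 30 points (4.50% against 8.65%), and with at least 10 CpGs per window 11.2% against 13.3%. Those higher, 25, were 9 with 2000 bp windows (1.24% against 3.28%), 15 with at least 10 CpGs per window (1.60% against 1.60%) and 13 at 30 points (0.992% against 1.24%). Of 63 alternative promoter differences, 37 moved by more than their read-sampling interval, NFE2 down to 4.32, LYL1 to 2.67 and GATA2 out to -11.9 points, and 4 changed sign, at TAL1 (-1.82 and -3.39 points), LMO2 (-8.53) and ERG (9.29), and the cause was not tested. GATA2, FLI1, KLF1 and ZFPM1 were lower and LYL1 and NFE2 higher in OCI-AML3 under all 7 alternatives. For GATA2, TAL1, LMO2, KLF1, NFE2 and ZFPM1 the canonical start is the most upstream one, so that alternative could not differ. The union of start regions could not differ at KLF1 either. These settings are counted among the 7 and the 63.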

Other observations

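The near-complete losses, at most 10% in OCI-AML3 and at least 50% in OCI-AML5, were spread over 8 of the 9 loci, flanks included. The KLF1 locus held 7 of them, GATA2 6, LMO2 5, ZFPM1 4, TAL1 and FLI1 3 each, and LYL1 and ERG 2 each, whereas NFE2 held 0. Of the 32, only 14 lay within 2 kb of a start site or in a gene body. Those of the LYL1 locus and most of the KLF1 locus lay in the flanks, over neighbours such as NACC1, STX10, HOOK2 and SYCE2. A few that the naming rule left out were picked after their values were seen. At FLI1 a run of 31 CpGs just upstream of the canonical start, overlapping the noncoding gene SENCR, averaged 9.80% in OCI-AML3 and 60.7% in OCI-AML5. In intron 5 of ZFPM1, under ZFPM1-AS1, 15 CpGs averaged 3.24% and 91.1%. Just past the 3' end of LMO2, neighbouring runs of 5 CpGs each averaged 7.65% and 89.2% in one and 3.47% and 88.1% in the other.

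The number of CpGs at intermediate levels, between 20 and 80%, was higher in OCI-AML5 near the start sites of 8 of the 9 genes, for example GATA2 (237 against 165 of 696) and KLF1 (80 against 38 of 146), and higher in OCI-AML3 at LYL1 (21 against 0 of 131). Over the whole loci it was higher in OCI-AML3 at 8 of the 9 genes, for example ZFPM1 (1483 against 772 of 6292) and GATA2 (591 against 505 of 2176), and lower at ERG (590 against 600 of 3765). These counts were not tested. No share over all promoters or all nuclear CpGs is given beside them, so they cannot be read as particular to these genes.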
